A study of Mus musculus with 8 samples.

Results

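The genes described here encode TBP, its relatives and regulators, the other general transcription factors of RNA polymerase II, the TBP partners used by RNA polymerases I and III, and the subunits of RNA polymerase II. They were chosen by name from the known make-up of these complexes, with earlier results of these data known. Each was measured by the brightest probe set that carries its symbol alone. Of 52 genes, 51 had such a probe set, out of 19938 genes on the array. The exception was Gtf2h2, a TFIIH core subunit, and Taf4a was found under its older symbol Taf4. All 51 passed the filter on low values in both tissues, which asks for at least 2 of the 4 arrays of a tissue at or above the 40th percentile of the probe sets on the same array.

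Spinocerebellar ataxia 17 (SCA17) is a dominant ataxia in which the polyglutamine tract of TBP is too long, so the mutated gene is itself a member of this set. Mice with an SCA17 knock-in allele (KI) and wild-type mice (WT), all aged 3 months, gave the total RNA, which was measured on Affymetrix Mouse Gene 1.0 ST arrays. There were 2 arrays in each of 4 groups: KI cerebellum (94 and 97), WT cerebellum (95 and 96), KI tibialis anterior muscle (94 and 97) and WT tibialis anterior muscle (95 and 96). The labels speak of 3 mice per genotype but 2 arrays per group were analysed, and no source ties an array to 1 animal, so the p values measure the spread between these arrays, which may be technical. The labels give neither the repeat length, the zygosity and the strain nor the cells in which the knock-in allele is active. The Tbp values do not separate the alleles.

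TBP is the subunit that bends promoter DNA and starts the assembly of the transcription machinery. With the TBP-associated factors (TAFs) it forms TFIID for RNA polymerase II, with another set of TAFs it forms SL1 for RNA polymerase I, and with Brf1 or Brf2 and Bdp1 it forms TFIIIB for RNA polymerase III. TFIIA and TFIIB then steady TBP on DNA, TFIIF brings in RNA polymerase II, and TFIIE and TFIIH open the promoter.

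The promoters of these genes are themselves places where the machinery assembles, so the sequences before the start sites of Polr2a, Tbp and 3 further members are shown. Polr2a was the member with the largest genotype difference, Tbp is the mutated gene, Taf1 and Ercc2 were called in muscle, and Taf13 was the only other member with a TATAAA at the usual place. The sequences are from RefSeq (GRCm38.p6), read 5′ to 3′ on the strand of the gene, and end at the base before the annotated start. Capitals mark TATAAA (the TATA box), CCAAT (bound by NF-Y), GGGCGG (a GC box, bound by SP factors) and CCGGAA (the core of the site of ETS factors) on either strand, with opposite-strand matches in their reverse complement.
Polr2a (chr11:69758634-69758883, minus strand): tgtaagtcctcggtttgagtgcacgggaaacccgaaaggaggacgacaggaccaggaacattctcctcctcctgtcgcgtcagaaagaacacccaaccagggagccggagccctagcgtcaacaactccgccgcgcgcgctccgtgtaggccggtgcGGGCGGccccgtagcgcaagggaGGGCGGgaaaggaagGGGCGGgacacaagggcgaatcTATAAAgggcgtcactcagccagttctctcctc
Tbp (chr17:15499638-15499887, plus strand): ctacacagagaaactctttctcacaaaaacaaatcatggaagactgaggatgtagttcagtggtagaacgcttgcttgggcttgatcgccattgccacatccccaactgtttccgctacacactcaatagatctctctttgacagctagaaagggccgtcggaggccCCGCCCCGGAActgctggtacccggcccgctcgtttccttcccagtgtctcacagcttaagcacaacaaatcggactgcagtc
Taf1 (chrX:101532635-101532734, plus strand): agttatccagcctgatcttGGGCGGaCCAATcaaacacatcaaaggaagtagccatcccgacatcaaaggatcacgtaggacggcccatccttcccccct
Ercc2 (chr7:19381917-19382016, plus strand): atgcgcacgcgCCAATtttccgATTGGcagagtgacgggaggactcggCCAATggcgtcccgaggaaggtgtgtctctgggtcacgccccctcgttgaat
Taf13 (chr3:108571599-108571698, plus strand): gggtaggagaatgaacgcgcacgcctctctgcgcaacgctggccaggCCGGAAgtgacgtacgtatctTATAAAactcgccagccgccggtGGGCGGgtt

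Counting the base before the start as -1, Polr2a has TATAAA beginning at -33 and GGGCGG at -93, -70 and -55. In the 250 bases before Tbp there is no TATAAA, and its GGGCGG on the opposite strand at -83 shares 1 base with a CCGGAA at -78. For Taf1, Ercc2 and Taf13 only the 100 bases before the start are shown. There Taf1 has GGGCGG at -81 and CCAAT at -74. Further upstream it has GGGCGG at -134, CCAAT at -113 and, on the opposite strand, CCAAT at -192. Ercc2 shows CCAAT at -89 and -52 and, on the opposite strand, at -78. Upstream of the bases shown, Ercc2 has an opposite-strand GGGCGG at -116 and Taf13 a CCAAT at -120. Promoter windows of 250 bases before to 50 after the start were found for 42 of 52 members, 49 windows in all, and none for Taf2. CCGGAA was in 51% of the member windows and in 14.9% of all 32851 windows. GGGCGG was in 65.3% against 35.7%, CCAAT in 32.7% against 37.4%, and TATAAA in 18.4% against 13.6%. A TATAAA on the gene strand beginning 40 to 20 bases before the start was in 2 of 49 member windows (4.08%, against 1.99% of all windows), those of Polr2a and Taf13. These matches describe letters in a window and do not show binding.

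The 8 arrays had medians from 5.40 to 5.51 on the log2 scale, and the pair of arrays in each group had a Pearson r of 0.977 to 0.989 across probe sets, which are no replicates, beside 0.972 to 0.989 between arrays of different genotype in a tissue. The tissue labels matched their markers: all 7 muscle fibre genes were called higher in muscle, and all 7 granule neuron genes and all 4 Purkinje cell genes with a probe set were called higher in cerebellum. Levels below are log2 values, differences are log2 KI minus WT with the standard error (SE) of the fit, and errors of levels are SD over 2 arrays. Called means an adjusted p (Benjamini-Hochberg) under 0.05 in a limma fit of all genes tested. A single value of 2 arrays against 2 cannot go below p = 0.333 in a two-sided exact permutation test, so all calls rest on the variance that limma shares between genes and groups.

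In KI muscle the RNA of 4 members rose and that of none fell. Polr2a, the gene of the catalytic subunit of RNA polymerase II, rose 2.34-fold, and Taf1, Taf2 and Ercc2, subunits of TFIID and TFIIH, rose 1.42-fold, 1.47-fold and 1.51-fold. Tbp itself was not called. The called members were 4 of 51 (7.84%), where 3.55% of all 13933 genes tested in muscle were called in either direction 2.66% higher and 0.89% lower. Without any 1 of the 8 arrays, 1 to 2 members were called, Polr2a each time. That count is given without the share of all genes called. At an unadjusted p under 0.05 there were 11 members (21.6%), 10 with a positive and 1 with a negative difference, which is near the 20.3% of all genes (13.6% positive and 6.69% negative). In bulk tissue, fewer cells of a type and less RNA per cell cannot be told apart.

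Most other differences in muscle were small. The difference was positive in 37 of 51 members (72.5%) and negative in 14, with a median of 0.07, against 55% of all genes positive and a median of 0.03. Both KI arrays exceeded both WT arrays for 20 members (39.2%) and lay below them for 2 (3.92%), Taf7 and Taf1d, against 30.3% and 19.9% of all genes. The median over members stood 0.11 above the WT mean on KI 97 and 0.041 above it on KI 94, level with WT 96 (0.040). KI 97 lay further from the WT mean than either WT array. The 2 WT arrays mirror each other around their own mean by construction, so they give a single value of spread. Over all genes the KI arrays stood at 0.030 and 0.033. The count of positive members depended on the scaling. After a further quantile normalisation 29 of 51 were positive, beside 50.1% of all genes. After centring each array on its median 40 were, beside 61.7% of all genes.

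**Figure D1:**
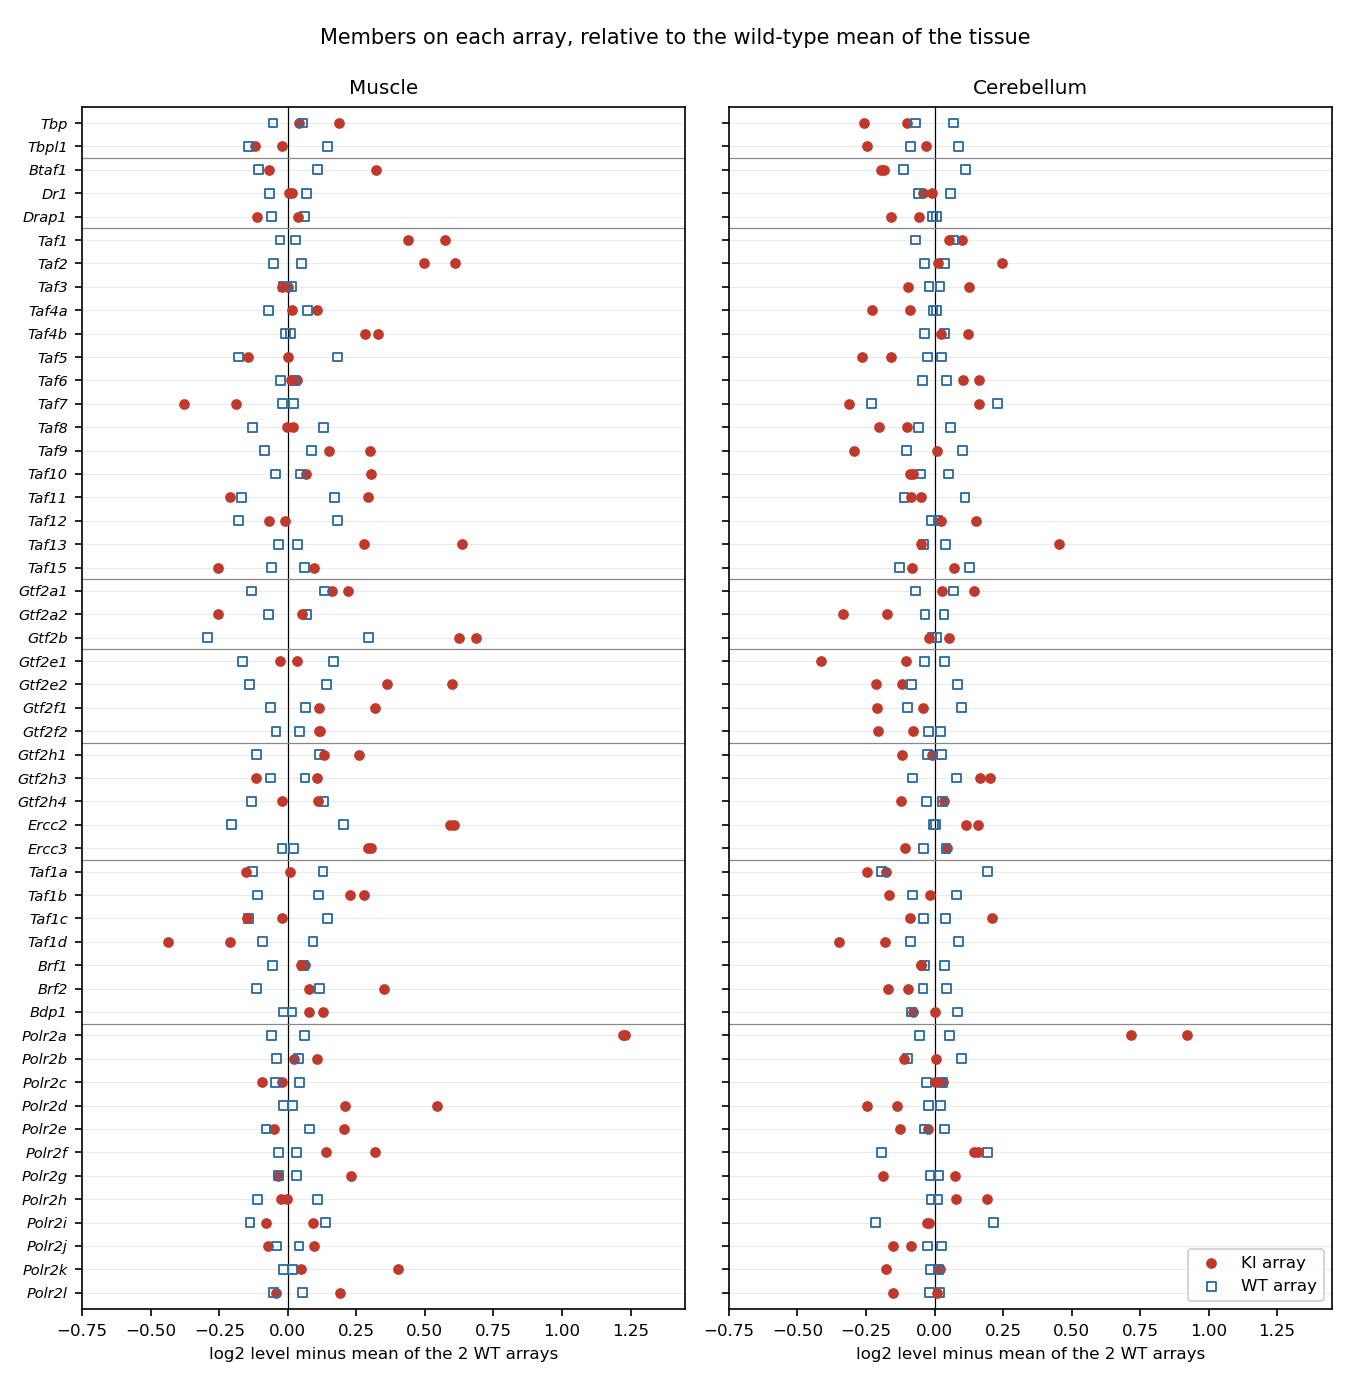
Log2 level of each of the 51 members on each array, minus the mean of the 2 WT arrays of that tissue (x axis), with muscle on the left and cerebellum on the right, KI arrays as filled circles, WT arrays as open squares, and lines between role groups. Polr2a stands to the right of the other members in both tissues, at 1.23 in muscle and 0.82 in cerebellum on average.

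RNA polymerase II has 12 subunits in this set, of which Polr2a encodes the largest. That subunit carries the C-terminal repeat domain, whose phosphorylation steps the enzyme from promoter to elongation. Polr2a measured 8.79 and 8.78 on the KI muscle arrays and 7.50 and 7.62 on the WT muscle arrays. The KI arrays were nearly equal and both lay more than 1 log2 unit above either WT array. The difference was 1.23 ± 0.12 (SE), with an adjusted p of 0.00158 by limma, rank 13 of 13933 genes by p. Leaving out each array in turn gave differences of 1.17 to 1.29, with adjusted p values from 0.00324 to 0.0167. Polr2a has 1 probe set on this array, so its value rests on that probe set alone.

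None of the other 11 subunits was called by limma, and only Polr2d had an unadjusted p under 0.05. Their differences ran from -0.06 for Polr2c to 0.38 for Polr2d. Polr2b, which forms the active centre with Polr2a, measured 7.58 and 7.66 in KI muscle and 7.52 and 7.60 in WT muscle, a difference of 0.06 ± 0.11 with overlapping arrays (-0.022 after a further quantile normalisation). Polr2d, which with Polr2g forms the stalk, measured 6.53 and 6.87 against 6.30 and 6.34. Both KI arrays of Polr2d were the higher, and the difference of 0.38 ± 0.13 was not called (adjusted p = 0.147 by limma). Polr2f and Polr2k, small subunits shared with RNA polymerases I and III, differed by 0.23 and 0.22 with no overlap between genotypes. The remaining 7 subunits (Polr2c, Polr2e, Polr2g, Polr2h, Polr2i, Polr2j and Polr2l) had overlapping arrays and differences from -0.06 to 0.10. A further probe set was available for Polr2c, Polr2h and Polr2l, and on it the genotypes differed by -0.14, -0.07 and 0.03, each less than its SE.

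Of the 15 TAFs of TFIID, Taf1 and Taf2 rose in muscle and none fell. Taf1 is the largest TAF, the scaffold that contacts TBP directly, and Taf2 is the subunit that with Taf1 touches the initiator at the start site. Taf1 measured 6.86 and 6.99 in KI muscle and 6.39 and 6.45 in WT muscle, and Taf2 measured 8.00 and 7.88 against 7.34 and 7.44. For both genes each KI array was above each WT array by more than the gap within either pair. The difference was 0.51 ± 0.11 for Taf1 (adjusted p = 0.0387 by limma) and 0.55 ± 0.12 for Taf2 (adjusted p = 0.0378). Both calls were close to the threshold. Taf1 lost its call whichever of the 8 arrays was left out, with adjusted p values from 0.0600 to 0.177. Taf2 kept its call without KI cerebellum 94 or 97 (0.0438 each) and lost it without WT cerebellum 95 or 96 or any of the 4 muscle arrays, at 0.0755 to 0.187.

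Among the other TAFs, Taf4b and Taf13 reached an unadjusted p under 0.05. Taf4b, a relative of Taf4a used in specialised forms of TFIID, measured 6.08 and 6.13 in KI muscle and 5.79 and 5.81 in WT muscle. Its pairs were tight and apart, with a difference of 0.30 ± 0.10 and an adjusted p of 0.144. Taf13, which pairs with Taf11, differed by 0.46 ± 0.18 on the brighter probe set (adjusted p = 0.191), while its other probe set differed by -0.11 ± 0.13. The direction for Taf13 therefore depended on the probe set. Taf10, a histone-fold TAF shared with the SAGA complex, gave the same disagreement, at 0.19 ± 0.12 and -0.16 ± 0.13. So did Taf9, another histone-fold TAF. The probe set that carries the Taf9 symbol alone differed by 0.22. A probe set shared with Ak6, used in no test, measured 6.88 and 6.90 in KI muscle and 7.09 and 7.13 in WT muscle. No source used here gives probe coordinates, so for these 3 genes neither probe set can be preferred. Taf7, which binds Taf1 and restrains it, was the only TAF with both KI arrays below both WT arrays, at 5.67 and 5.48 against 5.88 and 5.84, and its difference of -0.28 ± 0.19 was not called (adjusted p = 0.433). The remaining 8 TAFs (Taf3, Taf4a, Taf5, Taf6, Taf8, Taf11, Taf12 and Taf15) had overlapping arrays and differences from -0.08 to 0.06.

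**Figure D2:**
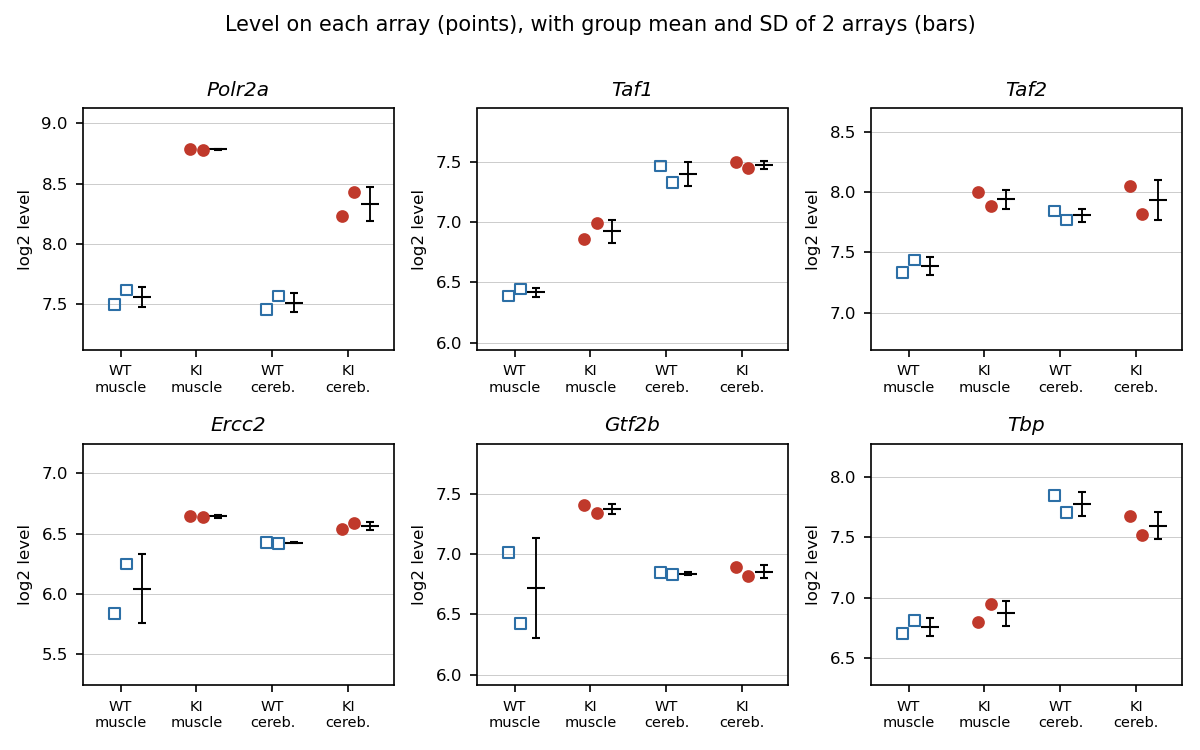
Log2 level (y axis, own range for each gene, all spanning the same number of log2 units) of 6 members on each array, as points by group, with the group mean and SD of 2 arrays as bars. The KI muscle arrays of Polr2a, Taf1, Taf2, Ercc2 and Gtf2b lie above the WT muscle arrays, and the KI and WT arrays of Tbp interleave in muscle, at 6.80 and 6.94 against 6.70 and 6.81.

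The factors that follow TFIID onto the promoter showed no call by limma among the 7 genes of TFIIA, TFIIB, TFIIE and TFIIF, with Gtf2b and Gtf2e2 at an unadjusted p under 0.05. Gtf2b, the single-chain TFIIB that bridges TBP and the polymerase, measured 7.40 and 7.34 in KI muscle and 7.01 and 6.43 in WT muscle. The KI arrays agreed and both were higher, while the WT arrays had an SD of 0.42. Its difference of 0.65 ± 0.17 missed the threshold (adjusted p = 0.0716 by limma) and was 0.95 without WT muscle 95 (adjusted p = 0.0222) and 0.36 without WT muscle 96 (0.170). Gtf2e2, the beta subunit of TFIIE, measured 5.52 and 5.76 in KI muscle and 5.30 and 5.02 in WT muscle, a difference of 0.48 ± 0.14 (adjusted p = 0.0959). Gtf2e1, its alpha partner, measured 5.64 and 5.58 against 5.78 and 5.44, inside the WT range. Gtf2f1 and Gtf2f2, the subunits of TFIIF that escort the polymerase, differed by 0.22 and 0.12, and Gtf2a1, the larger TFIIA precursor, by 0.19, all with KI above WT. Gtf2a2, the small TFIIA subunit, differed by -0.10 with overlap.

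TFIIH, which opens the DNA at the promoter and repairs bulky lesions, had 1 called member of 5 measured. Ercc2 encodes XPD, the helicase that unwinds DNA in repair, and measured 6.65 and 6.63 in KI muscle and 5.84 and 6.25 in WT muscle. Both KI arrays were the higher, and the WT arrays were spread with an SD of 0.29. The difference was 0.60 ± 0.14 (adjusted p = 0.0480 by limma). Ercc2 kept its call without WT muscle 96 (0.80, adjusted p = 0.0289) and lost it without any of the other 7 arrays, at 0.0740 to 0.213, with 0.39 without WT muscle 95. Ercc3, which encodes XPB, the translocase that opens promoters, measured 8.06 and 8.05 against 7.73 and 7.78. Its pairs were tight and apart, and the difference of 0.30 ± 0.11 was not called (adjusted p = 0.162). Gtf2h1, a scaffold subunit, differed by 0.19 with KI above WT, and the core subunits Gtf2h3 and Gtf2h4 by -0.0044 and 0.04 with overlap, where the sign for Gtf2h3 turned positive (0.032) after centring each array on its median.

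Tbp itself measured 6.80 and 6.94 in KI muscle (6.87 ± 0.10) and 6.70 and 6.81 in WT muscle (6.76 ± 0.08). The arrays interleaved, and the difference was 0.11 ± 0.12 (adjusted p = 0.634 by limma). Tbpl1, the TBP relative that serves promoters without a TATA box, measured 6.79 and 6.89 against 6.77 and 7.05, a difference of -0.07 ± 0.14. Btaf1, the ATPase that strips TBP from DNA, differed by 0.13 ± 0.15, with KI 94 at 7.03 above and KI 97 at 6.64 within the WT arrays at 6.60 and 6.82. Dr1 and Drap1, the pair that forms the NC2 complex, a block to TFIIA and TFIIB on TBP, differed by 0.01 and -0.04 with overlap. Of the 4 genes on each side of Tbp in the RefSeq order, 5 had a probe set and none was called. The direct neighbours were Psmb1, a proteasome subunit, at 0.19 (adjusted p = 0.359), and Pdcd2, at 0.23 (adjusted p = 0.355), both with KI above WT in muscle.

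The TBP partners of the other polymerases showed no call in muscle by limma. Taf1d, a subunit of the RNA polymerase I factor SL1, was the only member of the set lower at an unadjusted p under 0.05. It measured 7.81 and 8.04 in KI muscle and 8.34 and 8.16 in WT muscle. Both KI arrays were the lower, and the difference of -0.32 ± 0.13 was not called (adjusted p = 0.212). Taf1d has 9 probe sets, of which 4 hold identical values, so 6 are distinct. The dimmest lay below the filter in both tissues. The difference was negative on all of them in muscle and in cerebellum. All were read on the same arrays, so they are no replicates. The other SL1 subunits differed by -0.07 (Taf1a), 0.25 (Taf1b) and -0.09 (Taf1c), and only the arrays of Taf1b did not overlap. Brf1, Brf2 and Bdp1, the TFIIIB subunits, differed by 0.06, 0.22 and 0.10, and 6 further probe sets that Brf2 shares with Rpl11 were not used.

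In KI cerebellum, Polr2a was again higher and no other member was called. It measured 8.23 and 8.43 on the KI arrays and 7.46 and 7.57 on the WT arrays. The KI arrays were both the higher, and the gap between genotypes exceeded the gap within either pair. The difference was 0.82 ± 0.12, a rise of 1.76-fold (adjusted p = 0.0282 by limma). Polr2a was 1 of 51 members called (1.96%), where 0.205% of all 13641 genes tested were called in either direction 0.147% higher and 0.0586% lower. It was also the only member at an unadjusted p under 0.05, against 5.33% of all genes (2.27% positive and 3.06% negative). The call was lost without KI cerebellum 94 (0.92, adjusted p = 0.124), KI cerebellum 97 (0.72, 0.176), WT cerebellum 95 (0.76, 0.346) or WT cerebellum 96 (0.87, 0.179), and without WT muscle 95 or 96 (0.0535 each), while its direction was the same each time. Across all genes, 18 were called in both tissues, which is 3.64% of the 495 muscle calls and 64.3% of the 28 cerebellum calls, and Polr2a was the only member among them.

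The other differences in cerebellum were small and mostly negative. Over all members the difference was negative in 35 and positive in 16 (31.4%), with a median of -0.06, against 47.5% of all genes positive and a median of -0.01. Both KI arrays lay below both WT arrays for 16 members (31.4%) and above them for 6 (11.8%), against 20% and 15.3% of all genes. The median over members stood 0.086 below the WT mean on KI 97 and 0.030 below it on KI 94, level with WT 96. Here too KI 97 lay further from the WT mean than either WT array. The count of positive members was 20 after a further quantile normalisation, beside 52.4% of all genes. It was 13 after median centring, beside 41.9% of all genes. Tbp was among the lower ones, at 7.68 and 7.52 on the KI arrays (7.60 ± 0.11) and 7.85 and 7.71 on the WT arrays (7.78 ± 0.10). Its KI arrays lay just below the WT arrays, and the difference of -0.18 ± 0.12 was not called (adjusted p = 0.998). Tbpl1 measured 7.88 and 7.66 against 8.00 and 7.82 and overlapped.

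The members next to Polr2a by p in cerebellum were Taf1d, Gtf2a2, Gtf2e1, Taf5 and Gtf2h3, each with an adjusted p of 0.980 or above. Taf1d measured 6.81 and 6.98 in KI and 7.25 and 7.07 in WT cerebellum, a difference of -0.26. Gtf2a2 measured 6.61 and 6.45 against 6.82 and 6.75, a difference of -0.25. Gtf2e1 measured 5.38 and 5.07 against 5.45 and 5.52, a difference of -0.26. In these and in Taf5, a WD-repeat TAF at the core of TFIID (5.88 and 5.78 against 6.02 and 6.07), both KI arrays were the lower. Gtf2h3 was higher on both KI arrays, at 5.91 and 5.94 against 5.82 and 5.66. All 4 TFIIE and TFIIF subunits had negative differences, also under both other scalings. So did Btaf1, Dr1 and Drap1, of which 1 turned positive after a further quantile normalisation, and 8 of the 12 polymerase subunits.

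Whether the genotype difference itself differed between tissues was tested as the muscle difference minus the cerebellum difference. No member was called by limma, where 0.143% of 14708 genes were (0.102% higher and 0.0408% lower). At an unadjusted p under 0.05 there were 7 members (13.7%), all with the larger value in muscle, near the 13.8% of all genes in either direction and beside 9.15% in this one and 4.67% in the other. They were Gtf2e2 (0.65 ± 0.19, adjusted p = 0.215), Polr2d (0.57 ± 0.18, 0.244), Taf1 (0.43 ± 0.15, 0.287), Gtf2b (0.64 ± 0.24, 0.301), Taf2 (0.43 ± 0.17, 0.323), Polr2a (0.41 ± 0.16, 0.327) and Ercc2 (0.46 ± 0.19, 0.344). The muscle calls of Taf1, Taf2 and Ercc2 were thus not shown to differ from cerebellum, where the same genes differed by 0.08, 0.13 and 0.14. Over all members the value was positive in 41 (80.4%) and negative in 10, with a median of 0.15, against 55% of genes positive and a median of 0.04. After a further quantile normalisation 36 of 51 were positive, beside 49.7% of all genes. The 5 that turned negative were Tbpl1 (-0.037), Drap1 (-0.038), Dr1 (-0.079), Gtf2h4 (-0.023) and Polr2b (-0.0030).

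**Figure D3:**
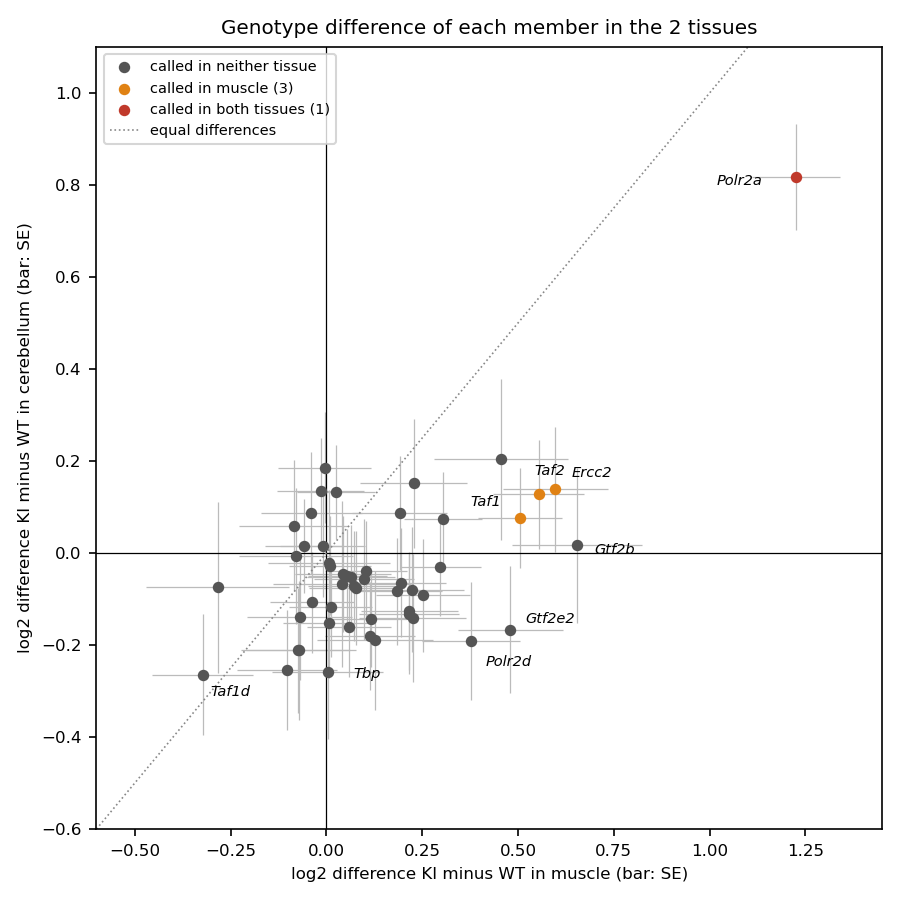
Log2 difference KI minus WT of each of the 51 members in muscle (x axis) and cerebellum (y axis), with bars for the SE and colours for calls at an adjusted p under 0.05 by limma. Polr2a stands at 1.23 and 0.82, while Taf1, Taf2, Ercc2 and Gtf2b lie to the right near 0 on the cerebellum axis; both axes share the spread of the 1 fit.

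Gtf2e2, Polr2d, Taf10 and Gtf2f2 had both KI arrays above WT in muscle and both below in cerebellum. These 4 of 51 members (7.84%) are near the 6.64% of all 12866 genes tested in both tissues, and the difference between tissues was called for none of them. The other probe set of Taf10 differed by -0.16 in muscle. Gtf2e2 in cerebellum measured 5.70 and 5.60 in KI and 5.90 and 5.73 in WT. Polr2d in cerebellum measured 6.12 and 6.01 against 6.24 and 6.28. Both genes gave small negative differences, -0.17 and -0.19.

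The level of some of these factors differed between muscle and cerebellum, where a call also asks for a change of at least 2-fold. Of 51 members 4 were called (7.84%), all higher in muscle, where 26% of 14708 genes were called, 11% higher and 15% lower. Taf12, a histone-fold TAF shared with SAGA, was at 7.33, 7.39, 7.22 and 7.58 in muscle and at 6.07, 5.94, 5.93 and 5.91 in cerebellum, a difference of 1.42 ± 0.09. Drap1, at 8.12 to 8.29 in muscle and 6.75 to 6.91 in cerebellum, differed by 1.36 ± 0.08. Taf1d differed by 1.06 ± 0.09 and Polr2l, a small subunit shared by all 3 polymerases, by 1.02 ± 0.09. The muscle and cerebellum arrays of these 4 genes did not overlap. Their adjusted p values by limma ran from 1.67e-07 to 3.98e-06.

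Taf1d and Polr2l stood at the edge of that threshold. Of the 9 Taf1d probe sets, 6 of them distinct, 7 were higher in muscle, among them those with identical values, at 0.18. On the mean of all 9 the Taf1d difference was 0.30, under 2-fold. That mean counts the identical ones each time and includes the dimmest, which lay below the filter. Polr2l was just under 2-fold without KI cerebellum 94 (0.98), WT muscle 95 (0.996) or KI muscle 97 (0.96), and its other probe set differed by 1.00. At the other end, Tbp and Tbpl1 were lower in muscle by less than 2-fold: Tbpl1 by -0.97 ± 0.10 and Tbp by -0.87 ± 0.08, with Taf1 at -0.76 ± 0.08 and Taf1b at -0.54 ± 0.09. Tbpl1 passed 2-fold without WT cerebellum 96 (-1.01), KI cerebellum 97 (-1.02) or WT muscle 96 (-1.04). Every Tbp array of cerebellum, from 7.52 to 7.85, was above every Tbp array of muscle, from 6.70 to 6.94, and the SE of the fit was small against that gap (adjusted p = 6.97e-06). All 12 polymerase subunits had positive tissue differences, also under both other scalings, with a median of 0.37 and Polr2a at 0.25, while over all members the difference was positive in 32 (62.7%) with a median of 0.20, against 52.2% and 0.03 for all genes.

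**Figure D4:**
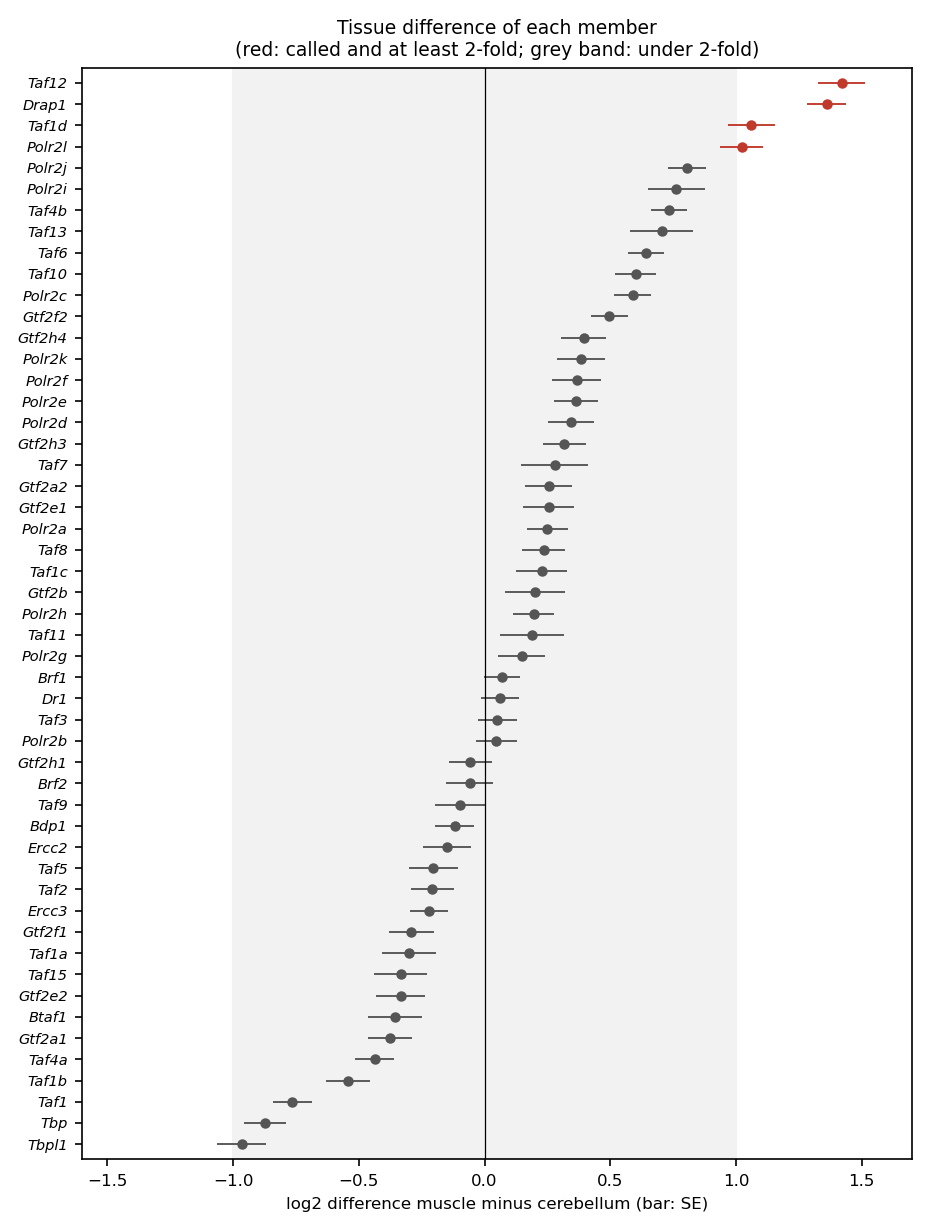
Log2 difference muscle minus cerebellum of each of the 51 members (x axis), averaged over genotypes, in order of size, with bars for the SE. The 4 called members (Taf12, Drap1, Taf1d and Polr2l) lie beyond 1 and Tbpl1, Tbp and Taf1 at the other end between -0.97 and -0.76.

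The genes around this set in the transcription cycle were counted from further lists. In muscle, calls were single genes in a list. Of all 13933 genes tested there, 3.55% were called, 2.66% higher and 0.89% lower. Taf9b, a paralogue of Taf9 that joins the same complexes, rose, with 9.35 and 9.27 in KI and 8.57 and 8.63 in WT (0.71 ± 0.12, adjusted p = 0.0193 by limma), 1 of 3 tested paralogues. Ccnk, the cyclin of Cdk12 and Cdk13, which phosphorylate the Polr2a tail, fell, with 8.40 and 8.34 against 8.95 and 9.23 (-0.73 ± 0.13, adjusted p = 0.0195), and was the only call among 16 kinases, regulators and phosphatases of that tail. Ctr9, a scaffold of the PAF1 elongation complex, rose, with 6.83 and 6.70 against 6.22 and 6.32 (0.50 ± 0.11, adjusted p = 0.0399), 1 of 19 pausing and elongation factors. For each of these genes the KI and WT arrays were apart. Whether these calls, and that of Nfyb given next, hold under other processing was not tested.

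Nfyb, a subunit of the CCAAT-binding factor NF-Y, fell, with 7.51 and 7.67 in KI muscle and 8.16 and 8.11 in WT muscle (-0.55 ± 0.11, adjusted p = 0.0305), 1 of 6 activators that SCA17 work has described as TBP partners. None of 33 Mediator subunits, which link activators to the polymerase, was called in muscle by limma. At an unadjusted p under 0.05 there were 13 (39.4%), 11 positive and 2 negative, beside 20.3% of all genes, 13.6% positive and 6.69% negative. The difference was positive in 29 (87.9%), beside 55% of all genes, and the median was 0.17, beside 0.03. After a further quantile normalisation it was positive in 24, beside 50.1% of all genes. The Mediator subunits with the smallest p were Med25 (-0.44, adjusted p = 0.0728), Med15 (0.39, 0.0785) and Med13 (0.42, 0.0849). No gene was called among 8 RNA polymerase I subunits (Polr1c and Polr1d of them shared with RNA polymerase III), 10 of RNA polymerase III, 13 of TFIIIA, TFIIIC, SNAPc, UBF and Rrn3, 4 of the TFIIH kinase part with Gtf2h5, and 10 assembly and turnover factors of RNA polymerase II. At an unadjusted p under 0.05 these lists held 1, 1, 5, 1 and 1 genes, or 12.5%, 10%, 38.5%, 25% and 10% of each, beside 20.3% of all genes. Snapc1, of the complex that starts small nuclear RNA genes, came nearest, at 0.55 (adjusted p = 0.0666). Among lists with a muscle call, 2 paralogues (66.7%) and 4 of the tail kinase list (25%) had an unadjusted p under 0.05. So did 7 pausing and elongation factors (36.8%) and 1 activator (16.7%), beside the same 20.3% of all genes. In cerebellum none of the genes of any of these lists was called by limma, where 0.205% of all genes tested were. At an unadjusted p under 0.05 there were 2 Mediator subunits (6.25%), 1 of the tail kinase list (6.25%) and 1 activator (16.7%), all lower. Of all genes 5.33% were at that p, 2.27% positive and 3.06% negative.

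Levels of cell type markers in the same arrays stand beside these results. Of all genes, 20.3% in muscle and 5.33% in cerebellum had an unadjusted p under 0.05, and 55% and 47.5% were positive. At that p stood 71.4% of fibre markers and 28.6% of macrophage markers in muscle. In cerebellum it was 16.7% of macrophage, 75% of Purkinje cell and 14.3% of granule neuron markers. In muscle, 6 of 7 fibre markers had negative differences with a median of -0.47 and 5 had an unadjusted p under 0.05, from Mb, myoglobin, at -0.98 (adjusted p = 0.0579) to Ttn at 0.0079, and none was called by limma. The mean level of the 7 was 11.4 and 11.6 on the KI arrays and 11.9 and 12.0 on the WT arrays. Macrophage markers were positive in 6 of 7 in muscle (median 0.29) and in 6 of 6 in cerebellum (median 0.27), with none called and 2 and 1 at an unadjusted p under 0.05. Their mean level was 6.27 to 6.52 on KI and 6.11 to 6.14 on WT arrays in muscle, and 6.28 to 6.31 and 6.04 to 6.06 in cerebellum. Purkinje cell markers were negative in 4 of 4 in cerebellum (median -0.72, none called, 3 at an unadjusted p under 0.05) and granule neuron markers in 7 of 7 (median -0.22, none called, 1 at an unadjusted p under 0.05). Their mean levels were 9.19 to 9.54 on KI and 10.1 on both WT arrays for Purkinje cells, and 10.1 to 10.3 and 10.4 to 10.5 for granule neurons. Also in cerebellum, fibroblast markers were positive in 4 of 4 (median 0.19, mean level 7.06 to 7.11 on KI and 6.83 to 7.01 on WT arrays). Choroid plexus markers were positive in 5 of 5 (median 0.26), with overlapping mean levels of 7.96 to 8.48 and 7.81 to 8.14, and endothelial markers in 5 of 6 (median 0.10). None of these 3 lists had a call or an unadjusted p under 0.05 in cerebellum. No marker with a probe set is at 0 on this scale. The adipocyte marker Retn was the only marker called, lower in KI muscle (-0.60, adjusted p = 0.0275), while Plin1 and Adipoq differed by -0.09 and 0.11. The part of these differences in the levels of Polr2a, Taf1, Taf2, Ercc2 and the other members was not tested.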

How the data were processed

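Each deposited value is the log2 expression level of 1 probe set on 1 array. The authors used GCOS and RMA, according to the submitters' processing notes. No source used here gives versions, a genome build or the set of arrays that RMA normalised at once. Of 35556 probe sets, 21789 carried 1 symbol in the platform annotation, naming 19938 genes, and the brightest probe set per gene over 8 arrays was used.

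A linear model with a mean per group was fitted to all 8 arrays with limma 3.58.1 in R 4.3.3 (eBayes, 4 residual and 5.30 prior degrees of freedom), with 13933 genes tested in muscle, 13641 in cerebellum and 14708 in either. Adjustment (Benjamini-Hochberg) ran over all genes tested, and only the genes of the set are reported. The procedure was tested on simulated data, drawn with independent arrays from the variances of the fit itself. That test cannot show whether these assumptions hold for the arrays here. The number of arrays limits the precision.

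The numbers in the sample titles recur between tissues. Same-numbered arrays deviated from their group means with correlations of 0.06 and -0.10, so they were not taken as pairs.

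The members and lists were chosen with earlier results of these data known. Full values are given for Tbp, Tbpl1, every called member, the 8 smallest p in muscle, 6 in cerebellum and 6 in the difference, the 4 largest tissue differences each way, and the smallest p in muscle of each role, with members named beyond that chosen after their values were seen. Promoter sequences are from RefSeq (GRCm38.p6). Figures were drawn with matplotlib 3.10.9. Probe sets with several symbols were left out of the tests. Alternatives covered the filter, the probe set, the scaling, the variance model, the threshold, 1 tissue alone, a replicate block and leaving out each array.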

Additional observations from a re-analysis of the deposited data

How the results depend on the processing

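With 2 arrays per group, most calls of members in muscle sat near the threshold. Polr2a in muscle was called under all 18 alternatives, with adjusted p values by limma from 0.000305 to 0.0167. The count of 4 members called in muscle became 1 with no filter, 1 after a further quantile normalisation and 1 with the muscle arrays alone, each time Polr2a, and 1 to 2 when an array was left out. The count of 1 in cerebellum became 0 with no filter (Polr2a adjusted p = 0.0678), 0 with the cerebellum arrays alone (0.0580) and 0 to 1 when an array was left out. The difference between tissues had 0 calls throughout, and the tissue comparison had 3 to 5. Gtf2b was called in muscle after median centring, with trended and robust variances, at an adjusted p under 0.1 and without WT muscle 95. Where leaving out an array leaves a lone array in a group, that array is assumed to vary like the other groups. The counts here are given without those over all genes. On their own they do not tell a loss among members from a general loss of calls.

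With the number in the titles as a replicate block, random for genotype and fixed for tissue, the counts were 4, 1, 0 and 4, and the block changed no call of a member. The labels do not say that the number marks an animal.

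Signs turned only for uncalled members. Over all 51, a further quantile normalisation turned 8 in muscle, 4 in cerebellum, 5 in the difference between tissues and 3 between tissues, and median centring turned 3, 3, 1 and 0. Among the members given in full, after a further quantile normalisation the difference between tissues was -0.037 for Tbpl1 and -0.038 for Drap1, and after median centring the muscle difference of Gtf2h3 was 0.032 and the cerebellum difference of Gtf2b was -0.0011. When an array was left out, muscle differences ran from -0.21 to 0.075 for Tbpl1, -0.26 to 0.050 for Gtf2a2, -0.16 to 0.17 for Gtf2e1, -0.25 to 0.11 for Taf5, -0.12 to 0.11 for Gtf2h3, -0.22 to 0.14 for Taf12, -0.11 to 0.036 for Drap1, -0.044 to 0.19 for Polr2l and -0.069 to 0.32 for Btaf1. Cerebellum differences ran from -0.021 to 0.054 for Gtf2b and -0.15 to 0.0082 for Polr2l. Differences between tissues ran from -0.074 to 0.21 for Tbpl1, -0.17 to 0.054 for Taf1d, -0.0015 to 0.30 for Gtf2a2, -0.042 to 0.32 for Taf5, -0.31 to 0.054 for Taf12 and -0.0052 to 0.14 for Drap1. The cause was not tested.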

Other observations

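The 6 probe sets that Brf2 shares with Rpl11, used in no test, had KI minus WT means from 0.13 to 0.19 in muscle and from 0.0036 to 0.12 in cerebellum. The probe set that Polr2k shares with another locus had -0.04 in muscle and 0.03 in cerebellum.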
